A study of Mus musculus with 6 samples.

Results

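In unstressed mouse spleen, 861 of the 1413 p53 peaks listed for B cells met a rule that called them basal sites seen only in B cells. Such a site overlapped, by at least 1 bp, a p53 peak listed for irradiated B cells, and overlapped no peak listed for mock-treated non-B cells and none listed for irradiated Trp53-/- spleen. The sites were thus chosen by the measured peak calls of these 4 lists, and the height of a peak in mock B cells helped to decide whether it was listed. These properties are described without a test. The overlap with irradiated non-B cells, the sequence under the sites, their position and the genes around them took no part in the choice.

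p53 ChIP-seq, in which DNA fragments bound by the transcription factor p53 are pulled down with an antibody and sequenced, was carried out on chromatin of C57/Bl6 mice. The groups were Trp53+/+ B cells, mock treated or taken 4 h after 7 Gy of ionizing radiation (IR), Trp53+/+ non-B cells under the same pair of conditions, and whole spleen of Trp53-/- mice 4 h after 7 Gy. B cells had been taken from spleens of mice 8 weeks old with beads against B220, non-B cells were what this step left behind, and the chromatin of several animals was pooled. Each group had 1 library, so no difference between groups has a replicate check. The one input library came from irradiated B cells. The non-B fraction is a mixture enriched for T cells, and because the samples hold chromatin alone, the labelled cell types were not checked against expressed markers here. In such bulk samples, occupancy in fewer cells and weaker occupancy in every cell cannot be told apart.

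p53 binds DNA as a tetramer at a response element made of a pair of decamers, each with the core letters CWWG, where W stands for A or T. In undamaged cells its level is held low by the ubiquitin ligase Mdm2, and DNA damage stabilizes it, after which it activates genes of cell cycle arrest, DNA repair and apoptosis. Resting lymphocytes of the spleen are among the cells that undergo p53-dependent apoptosis after irradiation. B cells owe their identity to factors such as Ebf1, Pax5, Ikaros (Ikzf1) and the ETS factors PU.1 and Spi-B, which keep the genes of the B cell receptor and of antigen presentation active.

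A p53 element was searched for within 300 bp of the midpoint of each site, as a pair of decamers with no spacer, with the C and G of each core required and at most 3 mismatches elsewhere. The elements below are those of the sites of highest mock value among sites with 0 or 1 mismatch. They are shown as the closest matches at the strongest of these sites, and because several of them are copies of one another. Some lie outside the B-only peak itself, and the Klhdc8a element lies inside a neighbouring shared peak at chr1:134162081-134162484. They were read from the mm9 forward strand, and capitals mark the 4 core letters of each decamer.
Bfsp2 site: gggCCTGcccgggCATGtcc
Klhdc8a site: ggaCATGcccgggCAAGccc
Ythdc1 site: aaaCAAGcccgggCATGccc
Ift57 site: ggaCATGtgtggaCATGttt
Immp2l sites: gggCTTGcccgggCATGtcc
Gm1968 site: tgaCATGtctgagCATGtct
Irf2bp2 site: aaaCATGtcaggaCAAGcct

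These sequences lay at chr9:103353383-103353402, chr1:134162403-134162422, chr5:87285548-87285567, chr16:49511336-49511355, chr12:42000279-42000298 and chr12:41992301-41992320 for Immp2l, chr16:29942372-29942391 and chr8:129127361-129127380. Each site is named by the nearest protein coding start, with no claim that this gene is its target. The sites near Jun and Hsp90b1 held the same 20 letters as the Klhdc8a site, and the Immp2l letters are its reverse complement. Read on either strand, this sequence occurred 127 times in the genome and at 12 of the 861 sites. It was also at 32 of the 377 basal sites shared with non-B cells, which are defined below. The site near Psg22 held the reverse complement of the Bfsp2 letters. Read on either strand, this second sequence occurred 285 times in the genome and at 22 of the 861 sites, and at 33 of the 377 shared sites. Both sequences thus took a larger share of the shared sites than of the B-only sites. The Gm1968 and Irf2bp2 elements occurred once in the genome.

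Another 3 elements were chosen after their values were seen, because the genes are known for roles in the p53 pathway or in cell cycle arrest. Mdm4 encodes an inhibitor of p53, Cdkn2b a cyclin-dependent kinase inhibitor, and Mir34b and Mir34c are microRNA genes that p53 induces.
Mdm4 site: agaCAAGcccagaCAAGtca
Cdkn2b site: gagCAAGaccggaCATGtct
Mir34b and Mir34c site: ggtCATGcctaggCATGtct

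The Mdm4 element, at chr1:134916882-134916901, lay in an intron, 1 bp from the midpoint of a peak with a B cells mock value of 9.49. The Cdkn2b element, at chr4:88954309-88954328, lay in an intron, at the edge of a peak of value 6.30 and beside one of value 8.91 in the same irradiated peak. The element at chr9:50914028-50914047 lay in the promoter window of Mir34b and Mir34c under a peak of value 12.52. These mock values were modest, and the overlapped irradiated peaks ranked at percentiles 99.9, 99.3 and 98.1 of the B cells IR list.

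The deposited value of a peak is −log10 of its p-value against background, so larger values mark peaks that stand out more from the background of their own library. In mock B cells the 861 sites had a median value of 8.39 and ranged from 5.01 to 28.83. The 377 basal sites shared with non-B cells, defined in the same way but with a non-B mock peak, had a median of 14.96 and reached 167.41. Only 8 of the B-only sites had a value of 20 or more, against 143 of the shared sites. B-only sites were also narrower, with a median width of 82 bp against 218 bp. In quintiles of the whole mock list ordered by value, from Q1 to Q5, the B-only sites numbered 233, 230, 213, 147 and 38, and the shared sites 23, 30, 40, 85 and 199. A site that stands near the calling limit in one library can be missed in another, and the depth of the libraries is not known. How many of the B-only sites were bound but not called in mock non-B cells was not tested.

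**Figure D1:**
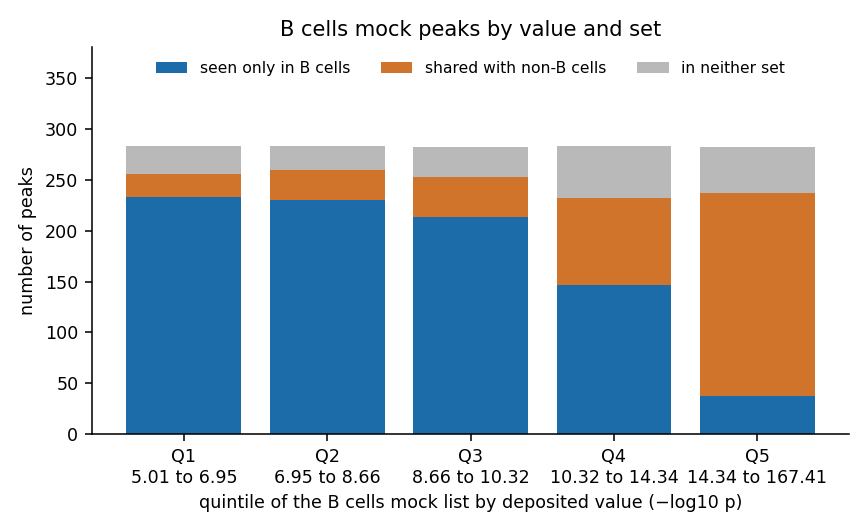
Number of B cells mock peaks (vertical axis) in each quintile of that list by deposited value (horizontal axis, −log10 p, with the lowest and highest value of each quintile), coloured by set. The sites seen only in B cells fall from 233 in Q1 to 38 in Q5, while those shared with non-B cells rise from 23 to 199.

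The site of highest value lay at chr9:103353101-103353405, 1.83 kb upstream of the nearest annotated start of Bfsp2, a lens intermediate filament gene, and within annotated introns of Bfsp2 and 5830418P13Rik. Its value was 28.83 in mock B cells, 174.34 in irradiated B cells and 281.05 in irradiated non-B cells. The next lay in an intron of Rasgrp3, which encodes a Ras activator of lymphocytes, with 25.61, 47.50 and 52.93 in the same order. Sites 32.5 kb upstream of Klhdc8a, 24.8 kb downstream of the start of Ythdc1 (a reader of methylated RNA) and 202 kb upstream of Jun (a subunit of the AP-1 factor) had mock values of 24.69, 24.54 and 18.63, and each held an element with 0 mismatches. Counting 1 site per irradiated peak, the 10 of highest value also included sites in an intron of Plekhm3 (23.00), upstream of Mlec (20.11) and near Mrpl39 (17.32, tied with a site near S100a10 and placed first as the wider), and these 3 held none. Values are not normalised between libraries, so their size cannot be compared across the 3 lists. Comparisons between lists below use ranks within a list. Where values of several lists are printed together below, they describe each peak in its own list and are not such comparisons.

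A few strong mock sites were weak after irradiation. A peak in an intron of Heca had a mock value of 24.69, at percentile 91.6 of its list, whereas the irradiated B cell peak had 8.33, at percentile 5.73, and the irradiated non-B peak had 16.25, at percentile 40.7. Peaks near Pgap1, Gm4955, St8sia6 and Hbb-b2 also combined a mock value in Q5 with an irradiated rank below the median of the B cells IR list (percentiles 43.4, 11.4, 23.5 and 20.3). None of these sites held an unsplit p53 element.

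The rule left some sites close to its edge. The smallest overlap that admitted a site was 5 bp, at chr4:131596607-131596711 in an intron of Epb4.1, and the smallest gap to a non-B mock peak was 8 bp, at chr9:11380594-11380685. Just outside, a peak 244 bp upstream of Btg2 counted as shared through an overlap of 2 bp. The 861 sites lay in 778 irradiated B cell peaks, of which 701 held 1 site and the others 2 to 4. For 109 sites the irradiated peak also held a non-B mock peak elsewhere along its length. The Bfsp2, Klhdc8a and Jun sites were of this kind, with a non-B mock peak 117, 63 and 264 bp away, so that at the scale of the irradiated peak they were basal in both populations. Among the other 752 sites the median mock value was 8.30, against 9.05 among the 109.

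After irradiation, 810 of the 861 sites overlapped a non-B cells IR peak, a share of 94.1% (95% Wilson interval 92.3 to 95.5). The share was 98.7% among shared sites, a difference of −4.60 points (Newcombe interval −6.53 to −2.37), and 86.8% among all B cells mock peaks. The background of 86.8% includes peaks that were not listed in irradiated B cells either, and of the 110 such peaks with no non-B mock or Trp53-/- overlap, 13.6% overlapped a non-B cells IR peak. It is therefore not a matched background. Apart from the B-only sites, the mock peaks with a B cells IR overlap were the shared sites and 8 peaks with a Trp53-/- overlap. All 8 overlapped a non-B cells IR peak. Among mock peaks with a B cells IR overlap, the share of B-only sites was thus not raised. Here and below, intervals cover counting error within these lists and not the difference between libraries. Peaks of 1 library cannot stand in for replicates, and no p-value is given.

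The sites were also among the higher ranked peaks of both irradiated lists. The overlapped peak had a median percentile of 89.5 in the B cells IR list and, for the 810 sites that had one, of 88.2 in the non-B cells IR list. Shared sites had medians of 97.6 and 98.5. All B cells mock peaks that overlapped a peak of the irradiated list had medians of 91.9 and 91.3. A high irradiated rank was thus common to mock peaks and not particular to the B-only sites. The sites whose irradiated B cell peak had the highest values lay in an intron of Fyn, a Src family kinase (326.39 in irradiated B cells and 543.29 in irradiated non-B cells), at Gm1968 (312.39 and 396.41), far upstream of Gm17434 (306.52 and 568.20), upstream of Aebp2 (304.43 and 376.45) and near 1700029H14Rik (298.49 and 495.88). Their mock values in B cells were 9.05, 14.96, 7.53, 14.34 and 9.08, none of them among the 10 highest. The irradiated peak at Fyn also held a shared basal peak with a mock value of 61.52, so its irradiated value is not that of the B-only site alone.

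**Figure D2:**
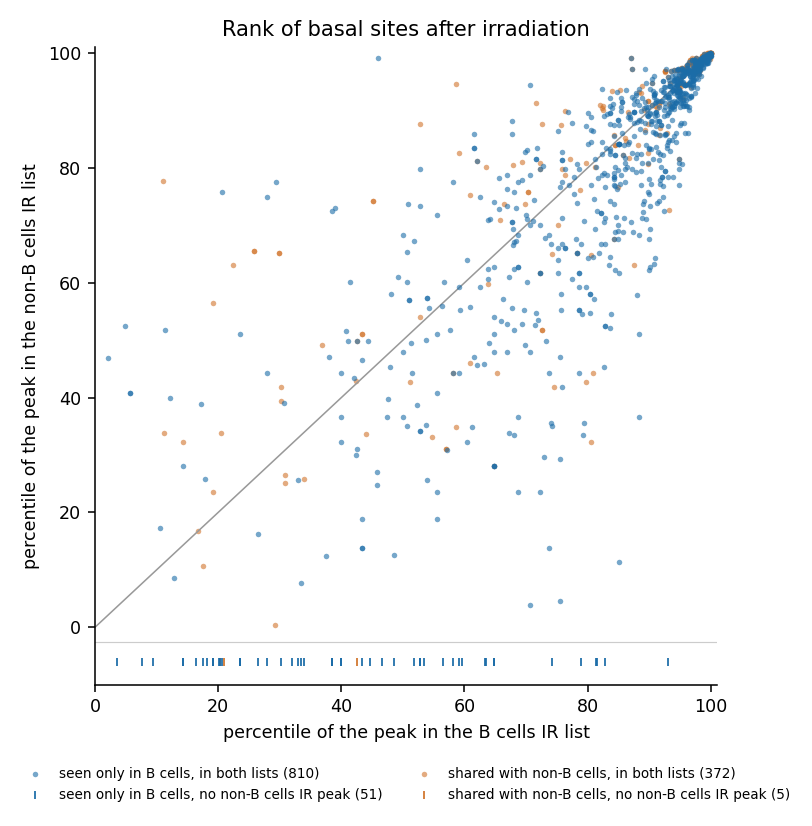
Percentile of the overlapped peak in the B cells IR list (horizontal axis) against that in the non-B cells IR list (vertical axis), 1 point per basal site; ticks under the line are sites with no non-B cells IR peak, and the diagonal marks equal rank. Of the 810 sites seen only in B cells, 506 lie under the diagonal and 304 above it.

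Site by site, the rank in irradiated B cells exceeded that in irradiated non-B cells at 506 sites and fell short of it at 304, with a median difference of 0.814 percentile points (quartiles −0.877 and 7.24). Shared sites had a median difference of −0.174 points, with the B cell rank higher at 143 and lower at 229. The B cell rank was over 25 points higher at 46 of 810 B-only sites and at 8 of 372 shared sites, a difference of 3.53 points in share (1.06 to 5.63), and over 25 points lower at 14 and 11. Some of these B-only sites, as at Ccbp2, Lmo4, Ankrd54 and Heca, had the same irradiated peaks and so repeat a comparison. The interval counts them as separate sites. The rule required a B cells IR peak and no non-B mock peak, so a higher rank in irradiated B cells is not independent of it. Shared sites were chosen with a non-B mock peak, so the comparison with them carries the same limit. The wide gaps included a site downstream of Ier5 (percentile 85.1 in irradiated B cells and 11.4 in irradiated non-B cells) and sites in introns of Cux1, Cd180 and Ebf1. Sites in or near Ly86, Inpp5d, Fli1, Stap1 and Lat2 were among the 46 as well. These genes were picked after the values were seen, as genes known for roles in lymphocytes: Cd180 and Ly86 encode the receptor complex RP105 and MD-1 of B cells, and Inpp5d the phosphatase SHIP. The Ly86 site was intergenic, 106290 bp from the start. The 46 also held sites near Pde7a (70.9 points higher), Gimap4 and Cd2 and in introns of Abcc4 (66.9 points higher), Pcmtd1 and Uchl3. The picked genes therefore do not describe the 46 as a set. In the other direction, sites near Zfp281, Zfp958 and Bcl6 ranked 55.1, 53.1 and 48.1 points lower in irradiated B cells than in irradiated non-B cells. The Zfp958 site had the same irradiated non-B percentile, 99.1, as a neighbouring shared site at chr8:4611113-4611639. That shared site ranked at percentile 97.6 in irradiated B cells, so the Zfp958 gap does not describe the locus as a whole.

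The 51 sites with no non-B cells IR peak were listed in mock and irradiated B cells alone. Those of highest mock value lay upstream of Pgap1, which acts on GPI anchors (18.63 in mock and 17.27 in irradiated B cells), in the promoter window of Klrb1c, a receptor of natural killer cells (17.17 and 20.60), in an intron of the sialyltransferase gene St8sia6 (15.74 and 12.09), upstream of the globin gene Hbb-b2 (15.74 and 11.25) and upstream of Phf12 (14.24 and 25.66). At Hbb-b2 the irradiated B cell peak also held a shared basal peak of mock value 32.84, and a non-B mock peak lay 115 bp from the B-only site. At the scale of the irradiated peak this site was thus basal in both populations. Further sites of this set lay 17 bp from the start of Cd22, an inhibitory co-receptor of B cells (12.97 and 20.60), upstream of the tyrosine kinase gene annotated as Sykb (8.30 and 22.29) and upstream of H2-Eb1, a class II gene (5.08 and 19.32). None of the 51 held an unsplit p53 element (0%, upper Wilson limit 7.00%), whereas 15.6% of the 810 others did. The PU.1 letters described below were present at 6 of the 51.

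An unsplit p53 element was found at 126 of the 861 sites, 14.6% (12.4 to 17.2). The share was 48.5% at shared sites, a difference of −33.9 points (−39.4 to −28.3), and 22.3% over all B cells mock peaks. It was 2.43% in all windows of 600 bp of the genome. It was 15.3% over all B cells IR peaks, so B-only sites held the element less often than shared sites, more often than the genome, and at a share whose interval includes that of irradiated B cell peaks in general. With the search narrowed to 100 bp on either side of the midpoint the share was 7.43%, and 4.88% held an element wholly within the listed peak. Because B-only sites had lower values, the comparison was repeated within quintiles of the mock list. This did not match values in Q5, which spanned 14.34 to 167.41 while B-only sites reached only 28.83. The share was 10.3% against 47.8% in Q1, 10.4 against 30.0% in Q2, 16.0 against 35% in Q3, 21.1 against 40% in Q4 and 34.2 against 57.8% in Q5, and the interval of the difference lay below 0 in every quintile. The 211 sites seen only in non-B cells before irradiation had a share of 19%, and the difference of −4.32 points from it had an interval of −10.6 to 1.02.

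The best element had 0 mismatches at 27 sites, 1 at 51, 2 at 23 and 3 at 25. Since neighbouring peaks can share one, the 126 sites held 116 distinct best elements. The centre of the element lay a median of 91 bp from the midpoint of the peak (65 bp at shared sites), and 72 of the 126 elements lay wholly outside the narrow mock peak although the irradiated peak held 124 of them. At the 109 sites whose irradiated peak also held a non-B mock peak, 24.8% had an element, at a median of 187 bp from the midpoint. At the other 752 sites 13.2% had one, at a median of 62 bp. The 20 letters of the best element occurred 10 times or more in the genome at 33.3% of B-only sites with an element (25.7 to 41.9) and at 38.8% of shared sites with one (32.0 to 46.0).

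Sites with an element had a median mock value of 9.08, against 8.00 without. The irradiated peak ranked at a median percentile of 97.8 with an element and 86.3 without in B cells, and at 98.1 and 84.2 in non-B cells. A pair of decamers split by a spacer of 1 to 15 bases, with at most 1 mismatch, was the sole element at 18 sites (2.09%), close to the 2.05% of all B cells mock peaks.

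By position, 37.9% of the sites (34.7 to 41.2) lay in a promoter window, from 5 kb before to 2 kb after an annotated transcription start. The share was 41.1% at shared sites, a difference of −3.25 points with an interval of −9.20 to 2.61, 38.9% over all B cells mock peaks and 47.6% over all B cells IR peaks. By the annotation at the midpoint, 44.1% of the sites were intronic, 46.9% intergenic, 5.46% in a UTR, 1.86% in a coding exon and 1.63% in a noncoding exon. The p53 element was rarer in promoter windows, where 7.06% of B-only sites had one (4.75 to 10.4), than outside them, where 19.3% did (16.1 to 22.8). At shared sites these shares were 36.1 and 57.2%.

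A sequence found more often at B-only than at shared sites was GAGGAAGT, the letters bound by PU.1, an ETS factor of B cells and myeloid cells. It was sought on both strands within 300 bp of the midpoint. It was present at 15.7% of the 861 sites (13.4 to 18.3) and at 5.57% of shared sites (3.67 to 8.37), a difference of 10.1 points (6.51 to 13.3). The share was 12% over all B cells mock peaks, 11.8% over all B cells IR peaks, 3.61% over the windows of the genome and 11.4% at sites basal only in non-B cells. The last differed from the share at B-only sites by 4.31 points with an interval of −1.18 to 8.74. B-only sites had the higher share in each quintile (15% against 0% in Q1, 20.9 against 3.33% in Q2, 15 against 10% in Q3, 11.6 against 7.06% in Q4 and 7.89 against 5.03% in Q5), but the interval of the difference excluded 0 only in Q1 and Q2. The letters were at 17% of B-only sites without a p53 element and at 7.94% of those with one. These shares describe letters in a window and do not show that PU.1 was bound.

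**Figure D3:**
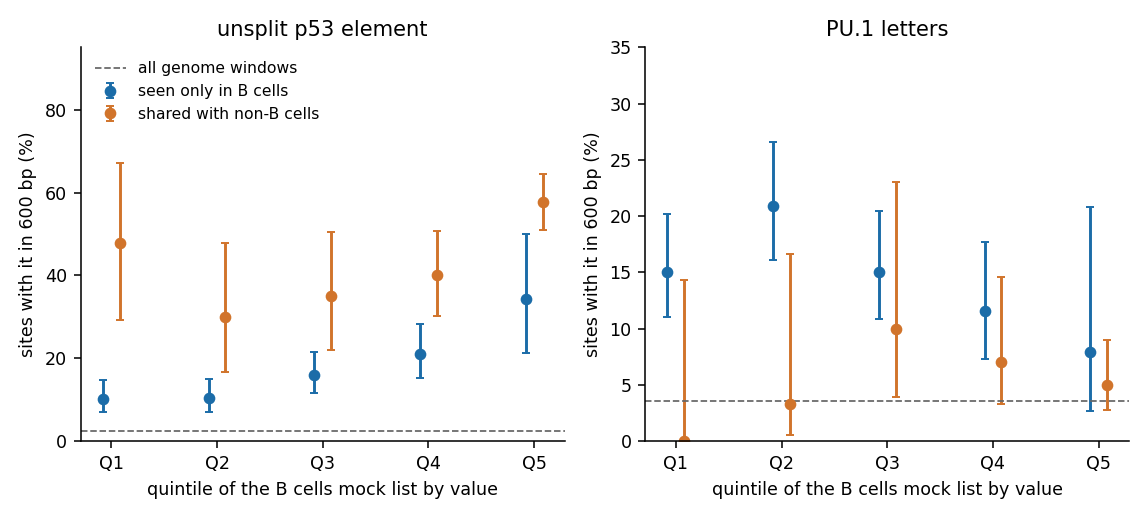
Percent of sites with an unsplit p53 element (left) and with the PU.1 letters (right) within 300 bp of the midpoint, by quintile of the B cells mock list; points are shares, bars are 95% Wilson intervals, and the dashed lines are the shares of all genome windows (2.43 and 3.61%). Sites seen only in B cells lie below shared sites in every quintile on the left and above them in every quintile on the right.

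Of the other letters searched, CCAATCA or CCAATGA, bound by NFY at promoters, was at 20.2% of B-only and 32.1% of shared sites, a difference of −11.9 points (−17.4 to −6.57). The NFY letters were at 16.4% of all B cells IR peaks and 14.3% of the genome's windows, so B-only sites lay below shared sites but not below these backgrounds. TGANTCA, bound by AP-1, was at 18.2 and 23.3%, a difference of −5.11 points (−10.2 to −0.281), and at 17% of the genome's windows. TGTGGTTT, bound by RUNX factors, was at 7.55% of B-only sites (5.97 to 9.51), 9.02% of shared sites and 16.6% of sites basal only in non-B cells (12.2 to 22.2). The RUNX letters were at 6.59% of all B cells IR peaks and 5.15% of the genome's windows. ATGCAAAT, the octamer bound by Oct factors at immunoglobulin genes, was at 5.92% of B-only sites (4.53 to 7.70), 3.71% of shared sites, 0.948% of sites basal only in non-B cells (0.260 to 3.39) and 5.21% of the genome's windows. CAGCTG, bound by E2A, was at 30.8% of B-only sites (27.8 to 33.9), 26.5% of shared sites and 30.2% of all B cells IR peaks. TCCCNNGGG, bound by EBF, was at 9.06, 7.69 and 11.9% in the same order. The genome's windows held them at 20% and 5.42%. The letters GAAANNGAA, bound by IRF factors, were at 21.0, 14.6 and 20.3%, and at 21.9% of the genome's windows. In all, 17 motifs were searched, and the others were each at under 10% of the B-only sites.

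The genes at the sites were counted in 6 lists, a gene being counted when a site lay in its promoter window or gene body. Over all protein coding genes, 518 of 22238 (2.33%) had a B-only site. In the list of B cell identity and receptor signalling genes, 14 of 41 did (34.1%, 21.6 to 49.5), whereas 2 (Pax5 and Lyn, 4.88%) had a shared site and 1 (Ikzf1, 2.44%) a site basal only in non-B cells. Those sets are smaller, and 0.980 and 0.666% of all protein coding genes had such sites. Syk did not match the annotation and is not counted, although the gene annotated as Sykb had a B-only site. Nearly all of these genes carried p53 peaks after irradiation in both populations, 40 of 41 in B cells and 39 of 41 in non-B cells, against 44.9 and 43.4% of all protein coding genes. Among genes with a B cells IR peak, 35% of the B cell list and 5.19% of all protein coding genes had a B-only basal site. In 10 of the 14 genes a site lay in the promoter window. Genes differ in length and in how open their chromatin is, and neither was accounted for.

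**Figure D4:**
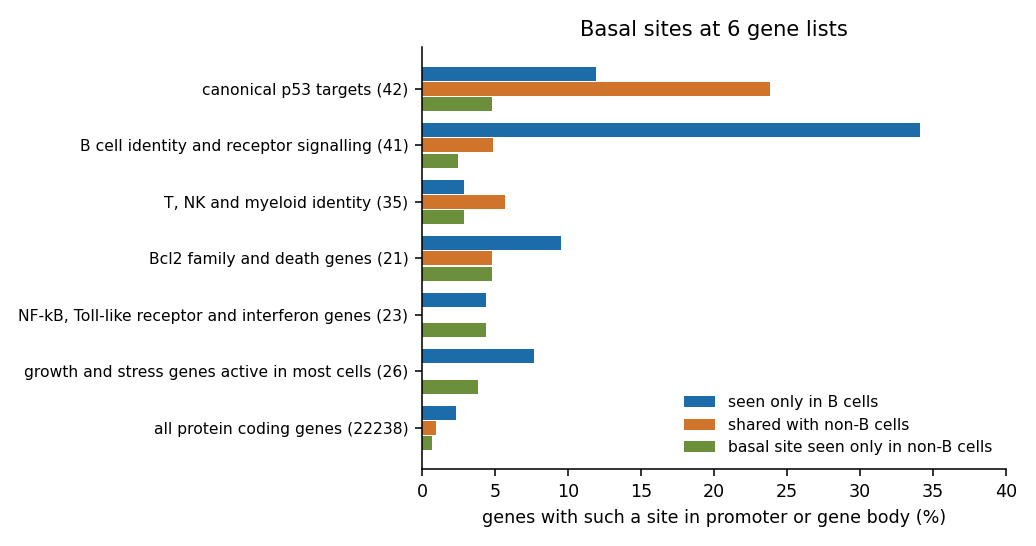
Percent of the genes of each list (number of genes in parentheses) with a basal site in the promoter window or gene body, for the 3 sets of basal sites; bars start at 0. The B cell list stands at 34.1% for sites seen only in B cells, and all protein coding genes at 2.33%.

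At Ciita, the master regulator of class II genes, an intronic site at chr16:10516083-10516538 had a mock value of 12.97 and ranked at percentile 97.6 in irradiated B cells and 95.7 in irradiated non-B cells. At Cd22 the site at chr7:31663996-31664131 had the same mock value, ranked at percentile 52.7 in irradiated B cells and was not listed in irradiated non-B cells. Blnk, the adaptor of the B cell receptor, had a site in an intron (mock value 11.54) and one at its start (10.25), which ranked at percentiles 92.2 and 95 in irradiated B cells and 76.8 and 93.2 in irradiated non-B cells. Ebf1 had 3 intronic sites with mock values of 6.78, 10.87 and 8.85 and percentiles of 48.5, 95.5 and 93.8 in irradiated B cells, against 12.7, 90.8 and 78.3 in irradiated non-B cells. Cd74, the class II invariant chain gene, also had 3 sites (mock values of 8.66, 10 and 10.24). The other genes with a site were Cd79a, Ikzf1, Pou2af1, Spib, Cd37, Cxcr5, Bach2, Bcl6 and Ighm. The Spib site counted through the promoter window, but its nearest protein coding start was that of Pold1, 186 bp away. For the Ighm site, also counted through the promoter window, the nearest was that of Gm11029, 10650 bp away.

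After irradiation the rank was higher in B cells than in non-B cells at 14 of the 18 sites of this list that were in both irradiated lists, by over 10 points at 6 of them, with a median difference of 4.06 points. Of these 6, 2 were Cd74 sites that lay in the same irradiated peak and so repeat 1 comparison. Over the 810 sites, 506 ranked higher in B cells, 165 by over 10 points. The exceptions were Ikzf1 (percentile 41.4 in B cells against 60.2 in non-B cells), Bach2 (84.3 and 87.4), Bcl6 (29.4 and 77.6) and Ighm (93.7 and 96.1). As at all B-only sites, these rank differences are not independent of the rule that chose the sites. Whether B cells left in the non-B fraction gave part of its signal at these genes was not tested.

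**Figure D5:**
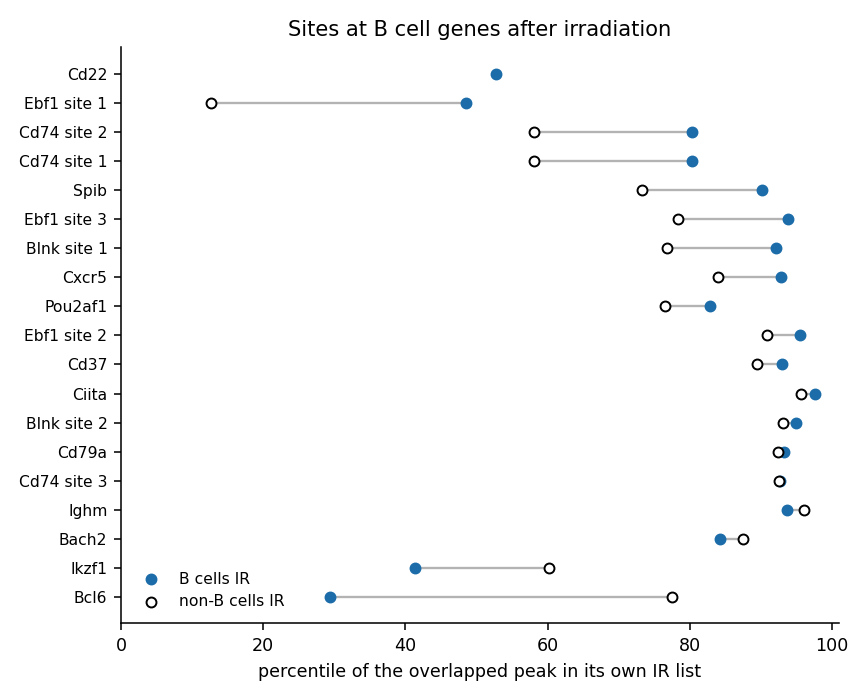
Percentile of the overlapped peak in the B cells IR list (filled) and in the non-B cells IR list (open) for the 19 sites seen only in B cells at genes of the B cell list, ordered by the difference; several sites of a gene are numbered along the chromosome. The filled point lies to the right at 14 sites, and Cd22 has no open point because it was not listed in irradiated non-B cells.

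Of these 19 sites, 1 held an unsplit p53 element, with 3 mismatches, in the intron of Blnk. The PU.1 letters were at 2 of them, shown here in capitals with 10 bases on either side on the strand that reads GAGGAAGT. They are shown as examples of the letters, which were at 135 of the 861 sites in all. The Ebf1 stretch is chr11:44446711-44446738 on the reverse strand, and the stretch near Cd37, which encodes a tetraspanin of B cells, is chr7:52494778-52494805 on the forward strand.
Ebf1 intron: gaactcaaagGAGGAAGTatgactttca
Cd37 promoter: atatccggtgGAGGAAGTgaacctcaga

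Of 42 canonical p53 targets, 5 had a B-only site (11.9%) and 10 a shared one (23.8%), and all 5 lay in promoter windows. Over all protein coding genes these shares were 2.33 and 0.980%. Bax, a pore-forming death protein, had a B-only peak of mock value 11.63 beside a shared one, and its irradiated peaks had values of 298.39 (B cells) and 462.00 (non-B cells). Ccng1, which encodes cyclin G1, also had both kinds. The peaks at Fas (a death receptor), Ddit4 (an inhibitor of mTORC1) and Eda2r (a receptor of the TNF receptor family) had mock values of 6.30, 8.85 and 7.82 in B cells and irradiated ranks from percentile 95 to 96.6 in B cells and from 95.2 to 96.8 in non-B cells. At these 3 genes no shared basal site was listed.

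The other lists held few genes with a B-only site, but none of their shares lay below the 2.33% of all protein coding genes. The shares were 2.86% (T, NK and myeloid), 9.52% (Bcl2 family and death), 4.35% (NF-kB, Toll-like receptor and interferon) and 7.69% (growth and stress). Among genes with a B cells IR peak they were 6.67, 13.3, 4.55 and 8.33%, against 5.19% of all protein coding genes. Each rests on 1 or 2 genes. In the T, NK and myeloid list 1 of 35 genes had one, Klrb1c, with 2 peaks inside a single irradiated peak and no non-B cells IR peak. In the Bcl2 family and death list 2 of 21 did, Bcl2l11, which encodes the death protein Bim and has a shared site too, and Tnfrsf1b, a TNF receptor. In the list of NF-kB, Toll-like receptor and interferon genes 1 of 23 did, Birc3, an inhibitor of apoptosis, with 3 sites, and in the growth and stress list 2 of 26, Ccnd3 (cyclin D3) and Actb. At Actb the site had a mock value of 5.22 and ranked at percentile 92.4 in irradiated B cells and 72.6 in irradiated non-B cells.

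Few of the listed peaks consisted mainly of 31-letter words with more than 1 exact copy in the genome. Diverged repeats were not searched for. The 20 letters of the best element occurred 10 times or more at 33.3% of B-only sites with an element, as given above. The 31-letter words of the listed peak had a median of 1 copy in the genome at 846 of the 861 sites, and a median above 1 at 15 (1.74%, 1.06 to 2.85), against 5.84% of shared sites. Of B cells mock peaks in no other basal list and not in irradiated B cells, 13.6% had a median above 1. One peak, in an intron of Dock11, consisted of words with a median of 23666 copies, and it was among the 51 sites without a non-B cells IR peak.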

How the data were processed

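p53 ChIP-seq libraries of mock and irradiated B and non-B cells, of irradiated Trp53-/- spleen and of input were grouped by their labels. Per the submitters' processing notes and the study's methods, the authors aligned reads with BWA 0.6.2 to mm9 and called peaks with MACS on pooled chromatin, 1 list per library. Input has no list here. The deposited column holds −log10 of a peak p-value, which is not normalised between libraries. The stated calling limit corresponds to 8, yet 31.6% of B cells mock values lie below it. Read depth is unknown.

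Peaks sharing at least 1 bp counted as overlapping; they were ranked within each list, and annotated by midpoint on NCBIM37 with GENCODE vM1. Shares have Wilson intervals and differences Newcombe intervals (95%, SciPy 1.17.1). Scripts were tested on simulated data. Sites were named by value, by lack of a non-B cells IR peak, by element, by irradiated value, by the edge of the rule and by gene list. The members, lists and motifs were chosen with earlier results of these data known, so they are not independent evidence. Element sequences on mouse chromosome 18 were not used here, and 1 site named by the element rule is not reported here. Pidd1, Tigar and Syk did not match the annotation by symbol.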

Additional observations from a re-analysis of the deposited data

How the results depend on the processing

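With 1 library per group and no depth, nothing here measures variation between animals, and a site absent from a list may have been bound. Of 52 planned recomputations, 37 stayed within 1.5 times the count or within the 95% interval as reported, among them all 7 of the share overlapping a non-B cells IR peak. The other 15 moved outside, among them 5 of the 11 for the share with an unsplit element. With values of at least 8 in all lists, which also removes weak non-B mock peaks, there were 529 sites, 18.1% with an unsplit element, 34.0% in promoter windows and a median mock percentile of 33.6. The median percentiles in the B cells and non-B cells IR lists were 87.2 and 84.7 with midpoints within 500 bp and 87.8 and 86.1 when absence was judged on the whole irradiated peak, and the latter was 86.1 with no non-B mock peak within 500 bp. The share with an element was 11.7% at most 2 mismatches, 20.1% at most 4, 7.43% within 100 bp of the midpoint and 4.88% wholly within the listed peak. The promoter share was 25.4% within 1 kb of a start and 33.8% with protein coding starts. Alternatives chosen after seeing the data changed the difference in element share from shared sites beyond its interval once, to −21.7 points within 100 bp (7.43 against 29.2%). They left the difference in PU.1 letters between 7.30 and 11.1 points. Leaving out the sites whose irradiated peak also held a non-B mock peak gave −35.4 points for the element. No paired analysis was possible because no group had a second library.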
